A study of Mus musculus with 7 samples.

Results

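The 9 genes described here build the acetylcholine receptor of skeletal muscle and the membrane around it. They are the receptor subunit genes Chrna1, Chrnb1, Chrnd and Chrng, the agrin receptor and signalling genes Lrp4, Musk, Dok7 and Rapsn, and Ache, which encodes the enzyme that breaks down acetylcholine. They were chosen by name, from the symbols of the rows, and each of the 9 had a row of its own among the 11642 rows of the expression table. C2C12 is a line of mouse myoblasts that leave the cell cycle and fuse into myotubes when serum is lowered. The 4 RNA-Seq libraries came from unmodified C2C12 cells on day 2 in differentiation medium, with 2 libraries per group. The si-SCR group had been reverse transfected with a scramble siRNA, and the si-SMaRT group with siRNA #1 against lnc-SMaRT, a long non-coding RNA of differentiating muscle cells. The question was which transcripts differed in abundance when lnc-SMaRT was depleted, here asked of the genes of the postsynaptic membrane. The libraries are from 1 cell line and 1 siRNA, and the cultures held no nerve, so no synapse was present in them.

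As background, the muscle receptor is a pentamer with the α, β and δ subunits and either the γ subunit, before innervation, or the ε subunit, in adult muscle. Agrin released by the motor nerve binds Lrp4, which activates the receptor tyrosine kinase MuSK. Dok7 binds MuSK inside the cell and sustains its activity, and rapsyn, the product of Rapsn, anchors the receptors in clusters under the nerve ending. Subunit genes are known to switch on when myoblasts differentiate, through E-boxes in their promoters that bind factors of the MyoD family.

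The effective library sizes behind the RPKM values (reads per kilobase of gene, scaled to library size) ranged from 11291255 to 14312935 reads. Lnc-SMaRT was measured at 19.1 and 15.9 RPKM in the si-SCR libraries and 2.88 and 3.65 RPKM in the si-SMaRT libraries, which gave -2.39 as log2 fold change (limma, Benjamini-Hochberg adjusted p = 0.000882). All 8 markers of differentiating muscle cells had a row, and their summed level was 6462 and 7242 RPKM in si-SCR and 5536 and 3345 RPKM in si-SMaRT. Most of this sum came from Acta1, Myh3 and Myog, and Acta1 alone measured 2553 and 1274 RPKM in si-SMaRT. The log2 fold change was below 0 for 7 of the 8 and above 0 for Myod1, at 0.26. None of these 8 passed the test, and 6 of them were lower in both si-SMaRT libraries than in both si-SCR libraries, as were 20.4% of all tested genes. With the trend of each library with GC content removed, 1 of the 8 passed, Ckm, which encodes muscle creatine kinase (log2 fold change -1.14, limma, adjusted p = 0.0328). In that fit 4.28% of tested genes passed. The Ckm call was lost with either si-SCR library left out, as was every other call of that fit. Among markers of other cell types, 1 of 5 for motor neurons (Isl1), 2 of 4 for fibroblasts (Dcn, Pdgfra), 1 of 4 for macrophages (Cd68) and 0 of 3 for endothelium had a row. The motor neuron genes Chat, Slc18a3, Mnx1 and Snap25 had no row among those used here.

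The promoters of 3 receptor genes are shown because their E-boxes are the sequence feature by which the subunit genes are known to be switched on together. Each window runs from 250 bases before to 50 bases after the start site of RefSeq (GRCm38.p6), is written 5′ to 3′ on the strand of the gene, and has every CANNTG, the letters of an E-box, in capitals. Chrna1 lies at chr2:73580289-73580588 on the minus strand, Chrnb1 at chr11:69795888-69796187 on the minus strand and Chrng at chr1:87205561-87205860 on the plus strand. The RefSeq starts of Chrng and Ache lie inside the GENCODE gene models.
Chrna1: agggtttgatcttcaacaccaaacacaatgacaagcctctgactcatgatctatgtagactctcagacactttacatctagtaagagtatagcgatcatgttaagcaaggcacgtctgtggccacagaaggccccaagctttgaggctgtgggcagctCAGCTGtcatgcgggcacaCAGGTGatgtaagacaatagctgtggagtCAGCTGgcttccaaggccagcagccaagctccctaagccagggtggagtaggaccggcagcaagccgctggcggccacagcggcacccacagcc
Chrnb1: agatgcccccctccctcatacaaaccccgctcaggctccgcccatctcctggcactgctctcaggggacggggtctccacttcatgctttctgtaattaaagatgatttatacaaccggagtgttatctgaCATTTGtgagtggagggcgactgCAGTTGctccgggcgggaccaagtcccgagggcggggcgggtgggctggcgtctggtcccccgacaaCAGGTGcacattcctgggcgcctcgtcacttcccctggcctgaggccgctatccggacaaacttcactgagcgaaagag
Chrng: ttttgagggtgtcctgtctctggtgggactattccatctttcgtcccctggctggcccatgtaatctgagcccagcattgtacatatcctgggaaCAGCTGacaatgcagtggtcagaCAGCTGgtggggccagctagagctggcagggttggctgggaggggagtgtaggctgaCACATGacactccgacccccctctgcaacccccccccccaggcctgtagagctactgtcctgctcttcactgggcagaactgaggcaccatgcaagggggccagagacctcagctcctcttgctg

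The letters CANNTG read the same on both strands, so each match counts for both. Windows of Chrna1, Chrnb1, Chrng and Musk each held 3 matches, a number that 17.6% of the 32851 promoters of the same length in the RefSeq table reached, while 72.3% held at least 1. The Ache window held 1 match, and the 2 windows of Dok7 held 1 and 0. The form CAGCTG, which is a subset of these matches, was found 2 times in Chrna1, at -92 to -87 and -44 to -39 relative to the start site, and 2 times in Chrng, at -155 to -150 and -132 to -127. It was found 1 time in Musk, at -68 to -63, and 0 times in the windows of Chrnb1, Dok7 and Ache. At least 2 copies of CAGCTG occurred in 1.90% of all promoters, and at least 1 in 16.3%. The N-box letters CCGGAA, searched on both strands as CCGGAA or TTCCGG, are those of a site through which ETS factors such as GABP act in synaptic nuclei. They did not occur in any of the 7 windows, against 14.9% of all promoters with at least 1. Promoters of Chrnd, Rapsn and Lrp4 were not analysed here.

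**Figure D1:**
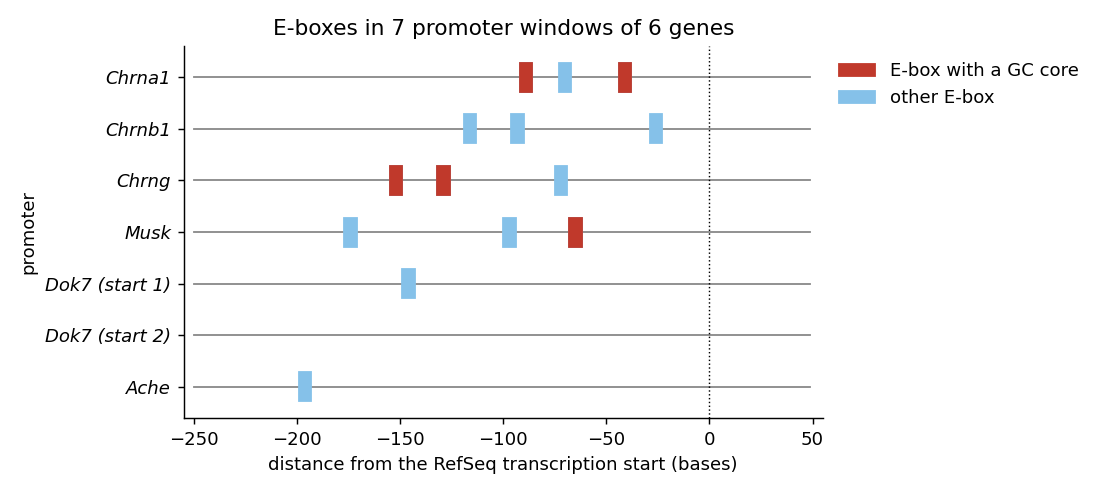
Positions of E-boxes in the 7 promoter windows of 6 of the 9 genes, with the distance from the RefSeq start site in bases on the horizontal axis and a row for each window. Red marks stand for the form CAGCTG (an E-box with a GC core) and blue marks for other CANNTG, and the red form appears 2 times each in Chrna1 and Chrng and 1 time in Musk.

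In the control cultures the receptor subunits were among the abundant transcripts, and the genes of agrin signalling were expressed at lower levels. RPKM is a level per kilobase, so levels of genes can be set side by side, but they depend on the length used. That length covers all exons of a gene. It was 4163 bases for Chrng, with 2780 in its longest transcript, and 2531 bases for Chrnb1, with 2155. For Lrp4 the 2 lengths were 10504 and 7926 bases, for Dok7 4228 and 2779, and for Chrna1 both were 4386. Chrna1, the subunit that carries most of the acetylcholine binding site, reached 362.6 and 346 RPKM in the 2 si-SCR libraries, above 98.7% of rows. Its mean level was 3.99 times that of Chrnb1, the next gene. Chrnb1 (88.7 ± 8.78 RPKM, SD, n = 2) and Chrng (88.4 ± 9.56 RPKM, SD, n = 2) followed with overlapping ranges, and did not differ beyond their spread. Chrnd (60.3 ± 8.14 RPKM) and Rapsn (54.1 ± 6.24 RPKM) came next and overlapped as well. Musk (25.9 ± 2.24 RPKM), Lrp4 (17 ± 3.66 RPKM) and Dok7 (12.9 ± 1.96 RPKM) were each below the gene before them without overlap. Ache stood at the bottom, at 0.188 and 0.23 RPKM, with Dok7 62 times higher. By RPKM the transcript of the fetal γ subunit was thus about as abundant as that of the β subunit. The ratio of Chrng to Chrnb1 was 0.989 and 1 in the 2 control libraries. On the lengths of the longest transcripts this ratio would be higher, and it was not worked out. Chrne, which encodes the ε subunit of the adult receptor, had no row among those used here, and the authors had removed genes with low CPM. In si-SMaRT, Chrna1 (258.5 ± 14.4 RPKM, SD, n = 2) and Chrnb1 (73.9 ± 3.06 RPKM) were the highest, and here Chrnb1 did not overlap Chrng. Chrng (44.6 ± 15.1 RPKM), Chrnd (39.6 ± 10.2 RPKM), Rapsn (34.8 ± 11.0 RPKM), Lrp4 (25.8 ± 7.13 RPKM) and Musk (22.7 ± 1.50 RPKM) followed, each overlapping the next. Some genes farther apart in this order were separate, with Chrng and Chrnd above Lrp4 and Musk in both libraries and Rapsn above Musk. Chrng and Rapsn overlapped. Dok7 (14.4 ± 7.89 RPKM) and Ache were again below them, and Lrp4 stood above Musk, where it had been below it in si-SCR.

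**Figure D2:**
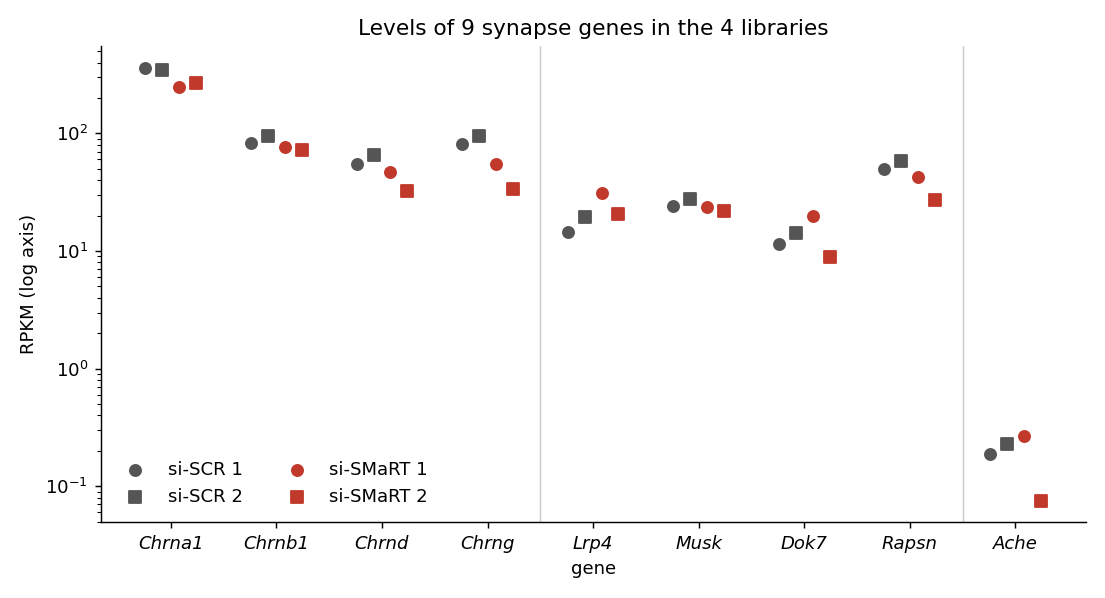
RPKM of the 9 genes in each of the 4 libraries, on a log10 axis, ordered by role (receptor subunits, agrin signalling, acetylcholine breakdown). Chrna1 is at the top between 248.3 and 362.6 RPKM and Ache at the bottom below 0.3 RPKM, and the 2 si-SMaRT points lie under the 2 si-SCR points for Chrna1, Chrnb1, Chrng, Chrnd, Rapsn and Musk.

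All 4 subunit genes were lower in both libraries of the depleted cells, by amounts that differed between subunits, and none passed the test across all genes. Differences were tested with limma on log2(RPKM + 0.1) for the 11086 genes that averaged 0.5 RPKM or more, at a Benjamini-Hochberg adjusted p of 0.05, and log2 fold changes are given as si-SMaRT over si-SCR. Of the 9 genes, 8 were tested and Ache was under the filter. At that threshold 0 of the 8 passed, where 0.505% of all tested genes did. By the unadjusted p under 0.05, 3 of the 8 were lower (Chrng, Chrnd and Rapsn) and 0 higher, against 5.60% and 3.49% of all tested genes and 9.09% in either direction. Groups did not overlap for 6 of the 8 in the lower direction, where 20.4% of tested genes were so, and for 1 of the 8 in the higher direction, where 20.2% were so. The median log2 fold change of the 8 was -0.36, beside 0.02 over all tested genes. In these bulk samples, fewer differentiated cells and less RNA per cell cannot be told apart, and the lower summed level of the muscle cell markers given above moved in the same direction. Its part in the result was not tested. The count of calls depended on the si-SMaRT libraries: without si-SMaRT 1, 4 of the 8 passed (Chrng, Chrnd, Rapsn and Dok7, all lower), where 26.2% of tested genes did, and without si-SMaRT 2, 3 passed (Chrng lower, Lrp4 and Dok7 higher), where 8.49% did. In these fits the lone library of a group was assumed to vary like the other group.

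Chrng, on the plus strand at chr1:87204657-87212694 (GENCODE M21 gene models on GRCm38, as for all genes that follow), encodes the γ subunit that marks the receptor before innervation. It measured 81.6 and 95.1 RPKM in si-SCR and 55.2 and 33.9 RPKM in si-SMaRT. Both depleted libraries were below both controls, and they also differed from each other by more than the controls did. The log2 fold change was -1.02 ± 0.29 (SE), with a 95% interval from -1.63 to -0.42 (limma, adjusted p = 0.163). Chrnd, which encodes the δ subunit and lies next to Chrng on the same strand at chr1:87190607-87200070, measured 54.5 and 66 RPKM in si-SCR and 46.8 and 32.3 RPKM in si-SMaRT. Its groups did not overlap, and as for Chrng the second si-SMaRT library was the lowest. Their nearest values were closer than the libraries of either group were to each other. For Chrnd the log2 fold change was -0.62 ± 0.28 (SE), with a 95% interval from -1.21 to -0.04 (limma, adjusted p = 0.5).

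Chrna1, on the minus strand at chr2:73563215-73580338, measured 362.6 and 346 RPKM in si-SCR and 248.3 and 268.7 RPKM in si-SMaRT. The groups were well apart and here the second si-SMaRT library was the higher of the pair. On the log2 scale the fold change was -0.46 ± 0.27 (SE), with a 95% interval from -1.03 to 0.12 (limma, adjusted p = 0.659). Chrnb1, which encodes the β subunit, on the minus strand at chr11:69784036-69795943, measured 82.5 and 94.9 RPKM in si-SCR and 76 and 71.7 RPKM in si-SMaRT. The groups did not overlap, but their nearest values were closer than the 2 controls were to each other. Its log2 fold change was -0.26 ± 0.26 (SE), with a 95% interval from -0.81 to 0.29 (limma, adjusted p = 0.841). Summed over the 4 subunits, the level was 581.2 and 602.1 RPKM in si-SCR and 426.4 and 406.7 RPKM in si-SMaRT. The sum was close within each group, at 591.6 ± 14.8 RPKM (SD, n = 2) and 416.5 ± 13.9 RPKM (SD, n = 2), while si-SMaRT 2 was the higher of the pair for Chrna1 and the lower for the other 3 subunits.

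Rapsn, which encodes the receptor anchor rapsyn, lies on the plus strand at chr2:91035620-91045729 and measured 49.7 and 58.5 RPKM in si-SCR and 42.6 and 27 RPKM in si-SMaRT. It followed the pattern of Chrnd, with both si-SMaRT libraries below the controls and the second one lowest. As for Chrnd, the nearest values of the groups were closer than the libraries of either group were to each other. The log2 fold change was -0.67 ± 0.28 (SE), with a 95% interval from -1.27 to -0.07 (limma, adjusted p = 0.468). A gene model on the opposite strand, Gm13778, overlaps Rapsn, and the strand setting of the read counting was not given in the sources used here.

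Lrp4, the agrin receptor, was the only one of the 8 tested genes with both si-SMaRT libraries above both si-SCR libraries. On the plus strand at chr2:91457511-91513779, it measured 14.5 and 19.6 RPKM in si-SCR and 30.9 and 20.8 RPKM in si-SMaRT. The lower si-SMaRT library was only just above the higher si-SCR library. On the log2 scale the fold change was 0.59 ± 0.29 (SE), with a 95% interval from -0.02 to 1.19 (limma, adjusted p = 0.569). Musk, the kinase that Lrp4 activates, on the plus strand at chr4:58285960-58374303, measured 24.3 and 27.5 RPKM in si-SCR and 23.8 and 21.7 RPKM in si-SMaRT. Its groups did not overlap, but their nearest values were closer than the 2 libraries of either group were to each other. The log2 fold change was -0.19 ± 0.26 (SE), with a 95% interval from -0.74 to 0.37 (limma, adjusted p = 0.89). Dok7, the cytoplasmic activator of MuSK, on the plus strand at chr5:35056766-35087839, measured 11.6 and 14.3 RPKM in si-SCR and 20 and 8.84 RPKM in si-SMaRT. The 2 si-SMaRT libraries lay on either side of the controls, so the groups overlapped. The log2 fold change of Dok7 was 0.05 ± 0.34 (SE), with a 95% interval from -0.66 to 0.76 (limma, adjusted p = 0.982).

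Ache, on the plus strand at chr5:137287519-137294466, was left out of the test by the filter on low values. It measured 0.188 and 0.23 RPKM in si-SCR and 0.268 and 0.0756 RPKM in si-SMaRT. These values rest on 11, 15, 14 and 5 reads, with exact Poisson 95% intervals of 5.49 to 19.7, 8.40 to 24.7, 7.65 to 23.5 and 1.62 to 11.7 reads, which cover counting error only. The first 3 intervals contain each other's counts, and a difference between the groups was not detectable at this depth. Without the filter, the log2 fold change was -0.28, with a 95% interval from -1.07 to 0.52 (limma, adjusted p = 0.88). The Ache gene overlaps the gene models Gm42456, on the opposite strand, and Mir8116. Counting error was small for the other members, which had between 535 reads (Dok7 in si-SMaRT 2) and 21449 reads (Chrna1 in si-SCR 2).

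**Figure D3:**
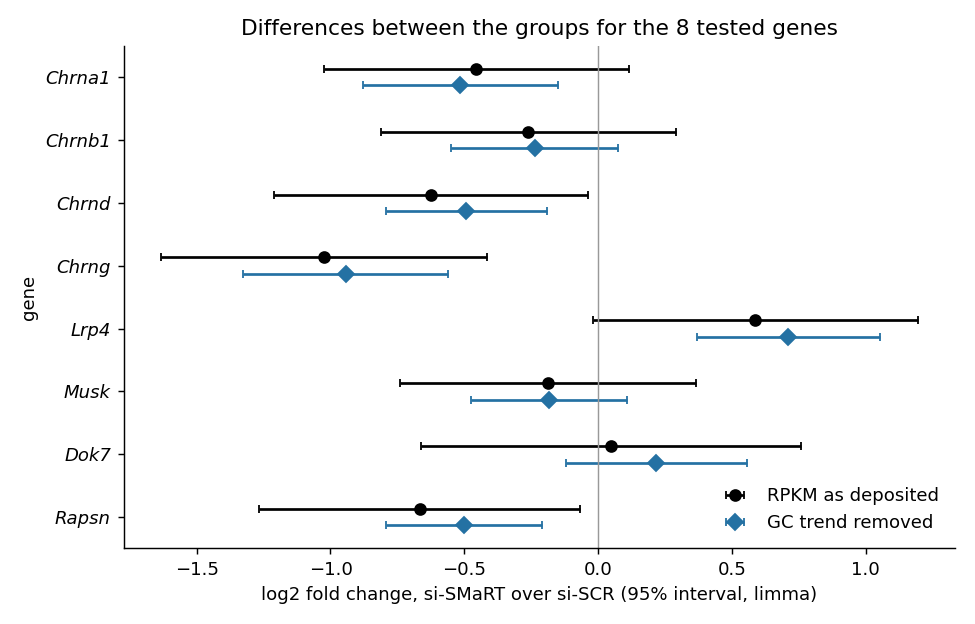
Log2 fold change of si-SMaRT over si-SCR with its 95% interval from limma for the 8 tested genes, before and after the trend of each library with GC content was removed. Chrng is farthest to the left at -1.02 and Lrp4 farthest to the right at 0.59, and both keep their side of 0 after the correction.

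Several members departed more between the 2 si-SMaRT libraries than between the 2 si-SCR libraries, and the size of that departure ran with the GC content of their transcripts. GC content ranged from 46.3% for Chrna1 to 60.4% for Dok7, with a median of 54.7% over the 9 members and 49.6% over the tested genes. On log2(RPKM + 0.1), si-SMaRT 2 minus si-SMaRT 1 was 0.11 for Chrna1, -0.08 for Chrnb1 and -0.13 for Musk. It was -0.53 for Chrnd, -0.57 for Lrp4, -0.66 for Rapsn and -0.70 for Chrng, and it was largest for the most GC-rich members, Ache (-1.07) and Dok7 (-1.17). Across the 9 genes Spearman's rho with GC content was -0.867 for this difference and 0.617 for si-SCR 2 minus si-SCR 1. Over 10957 tested genes the same values were -0.842 and 0.377. These correlations are across genes of the same 2 libraries, which are not independent replicates, and describe the libraries only.

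**Figure D4:**
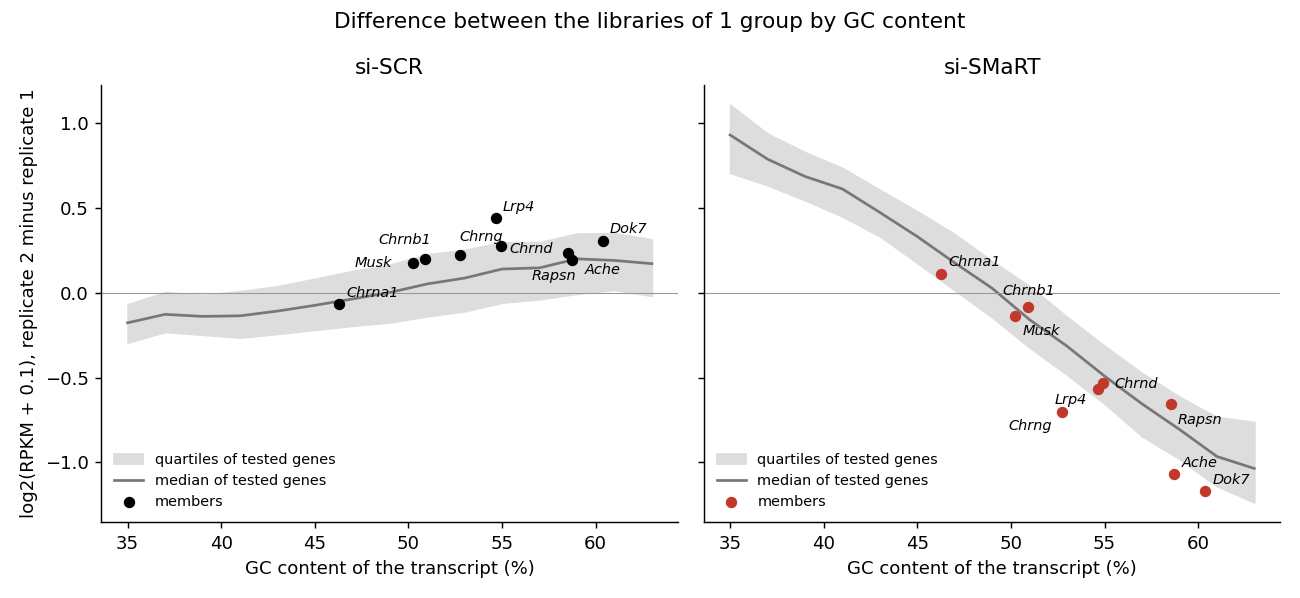
Difference between the 2 libraries of a group, as log2(RPKM + 0.1) of replicate 2 minus replicate 1, against the GC content of the transcript in percent, for si-SCR on the left and si-SMaRT on the right. The line and the band are the median and the quartiles of the tested genes. In si-SMaRT the members run from 0.11 for Chrna1 to -1.17 for Dok7, and most lie near the falling line. Chrng, at -0.70, lies well below the band, whose quartiles are -0.48 and -0.14 between 52% and 54% GC. Ache, which rests on 14 and 5 reads there, and Dok7 also lie below the band.

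With the GC trend of each library removed by a loess fit, 2 of the 8 passed the threshold. Over all genes 4.28% then did, 2.37% in the lower and 1.91% in the higher direction. Chrng was 0.39 and 0.55 above its own mean in si-SCR and 0.27 and 0.68 below it in si-SMaRT on the corrected log2 scale, and its log2 fold change was -0.94 ± 0.17 (SE, limma, adjusted p = 0.027). Lrp4 was 0.52 and 0.19 below its mean in si-SCR and 0.41 and 0.30 above it in si-SMaRT, and its log2 fold change was 0.71 ± 0.15 (SE, limma, adjusted p = 0.0404). For both genes the groups stayed apart, and after the correction this held for every other tested member too, for Dok7 only just. The share of all genes with groups apart after the correction was not worked out. Rapsn (-0.50, adjusted p = 0.0655), Chrnd (-0.49, adjusted p = 0.0738) and Chrna1 (-0.51, adjusted p = 0.103) had log2 fold changes of like size and missed the threshold in limma. Chrnb1 (-0.24), Musk (-0.18) and Dok7 (0.22) were nearer to 0. The departure between the si-SMaRT libraries shrank from -0.66 to 0.11 for Rapsn and from -0.53 to -0.04 for Chrnd, while Chrng kept -0.41 and Dok7 -0.30. When 1 si-SCR library was left out of this fit, 0 of the 8 passed, as did 0 of all 10957 genes. Without si-SMaRT 1, the 3 that passed were Chrng, Chrnd and Lrp4, and without si-SMaRT 2 they were Chrng, Rapsn and Lrp4, where 13.2% and 10.6% of genes did.

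Ratios between members within a library do not depend on the scaling of that library. They can still carry its trend with GC content where the genes differ in it, as Chrng (52.7%) and Chrna1 (46.3%) do. The ratio of Chrnb1 to Chrna1 was 0.228 and 0.274 in si-SCR and 0.306 and 0.267 in si-SMaRT, and that of Chrnd to Chrna1 was 0.150 and 0.191 in si-SCR and 0.189 and 0.120 in si-SMaRT. Both overlapped between the groups. The ratio of Chrng to Chrna1 was 0.225 and 0.275 in si-SCR and 0.222 and 0.126 in si-SMaRT, so the groups were apart only just. The ratios planned for the subunits were those to Chrna1, and the next 2 were not among them. The ratio of Chrng to Chrnb1 was 0.989 and 1 in si-SCR and 0.726 and 0.473 in si-SMaRT. The ratio of Chrng to Chrnd, neighbours in the genome with GC contents of 52.7% and 54.9%, was 1.50 and 1.44 in si-SCR and 1.18 and 1.05 in si-SMaRT. In both of these unplanned ratios the γ subunit took a smaller part in the depleted cells, without overlap. The share of Chrng in the sum of the 4 subunits was 14.0% and 15.8% in si-SCR and 12.9% and 8.34% in si-SMaRT, and that of Chrnb1 was 14.2% and 15.8% in si-SCR and 17.8% and 17.6% in si-SMaRT. Chrna1 made up 62.4% and 57.5% of the sum in si-SCR and 58.2% and 66.1% in si-SMaRT, so its share overlapped between the groups. No test was made on the ratios, as 2 libraries against 2 cannot reach p = 0.05 in a two-sided exact permutation test.

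Ratios to Lrp4 were also apart between the groups. Lrp4 to Chrnd, a pair chosen after the values were seen because the GC contents are nearly equal (54.7% and 54.9%), was 0.265 and 0.297 in si-SCR and 0.660 and 0.643 in si-SMaRT. The means were 0.281 ± 0.0228 (SD, n = 2) and 0.652 ± 0.0116 (SD, n = 2), so the 2 libraries of a group were close. Musk to Lrp4, the kinase to the receptor it works with, was 1.68 and 1.40 in si-SCR and 0.771 and 1.04 in si-SMaRT. By RPKM, Musk was thus the higher of this pair in both control libraries, and the order was the opposite in the first si-SMaRT library only. Rapsn to Chrnd stayed level, at 0.912 and 0.886 in si-SCR and 0.910 and 0.834 in si-SMaRT.

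**Figure D5:**
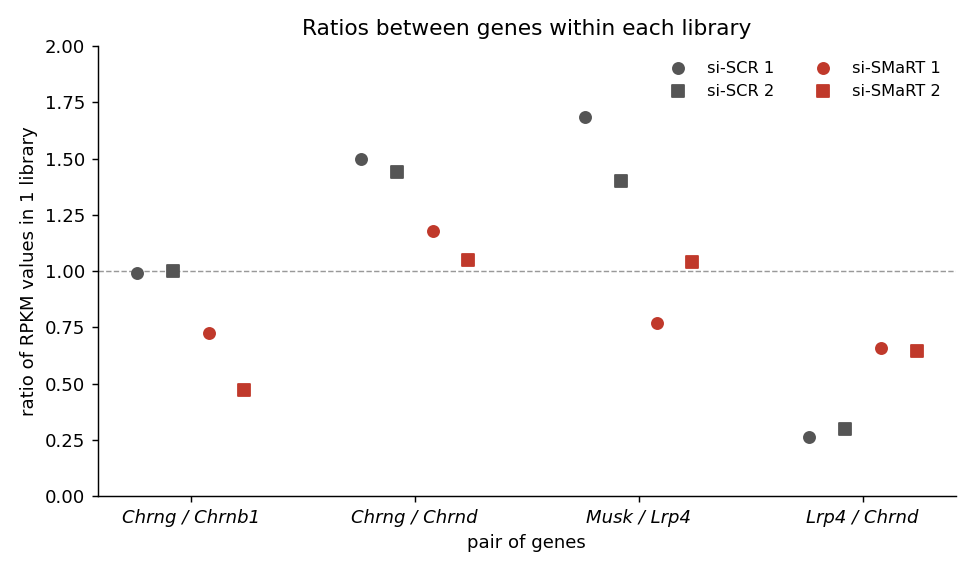
Ratio of the RPKM values of 2 genes within each library, for 4 pairs, with a dashed line at a ratio of 1. Lrp4 / Chrnd is 0.265 and 0.297 in the si-SCR libraries and 0.660 and 0.643 in the si-SMaRT libraries, while the other 3 ratios are lower in both si-SMaRT libraries than in both si-SCR libraries.

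Of 65 other genes known at the postsynaptic membrane or in its control, 47 had a row and 46 were tested, and 1 passed the threshold, in the higher direction. The background was 0.325% of tested genes lower and 0.180% higher. Their median log2 fold change was 0.11, beside -0.54 for the 4 receptor subunits. The gene that rose was Nid2, which encodes nidogen-2, a basal lamina protein. Nid2 measured 14.1 and 17.1 RPKM in si-SCR and 47.9 and 32.6 RPKM in si-SMaRT, and its log2 fold change was 1.34 (limma, adjusted p = 0.04). Its groups were far apart, and it also passed with the GC trend removed (limma, adjusted p = 0.00459). The call was lost without si-SCR 1, where the log2 fold change was 1.21, and without si-SCR 2, where it was 1.48. In the GC-corrected fit these values were 1.38 and 1.55, and the Nid2 call was lost there too, as was every other call. It was also lost with no filter on low values, with quantile normalization and with no trend in the prior variance (limma, adjusted p = 0.0542, 0.0756 and 0.0655). The summed level of the 2 fibroblast markers with a row moved in the same direction as Nid2. It was 65.9 and 56.3 RPKM in si-SCR and 102.8 and 149.1 RPKM in si-SMaRT, nearly all of it from Dcn. Pdgfra overlapped between the groups, at 0.723 and 0.584 RPKM in si-SCR and 0.679 and 0.67 RPKM in si-SMaRT. Dpt and Lum had no row, and the part of this sum in the result was not tested. Of the 8 esterase anchor and basal lamina genes, 5 were tested. Colq, the collagen tail of the esterase, shares a row with Hacl1, and Prima1 and Bche had no row.

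None of the 12 other nicotinic subunit genes, from neurons or from adult muscle, had a row. All 17 agrin and MuSK signalling genes were tested and 0 passed, with a median log2 fold change of 0.15. The most abundant of them were Hsp90ab1, a chaperone, at 534.4 and 658.3 RPKM in si-SCR and 735.4 and 618 RPKM in si-SMaRT, and Ctnnb1, β-catenin, at 130.4 and 123.4 RPKM in si-SCR and 117.7 and 113.1 RPKM in si-SMaRT. For Hsp90ab1 the groups overlapped, and for Ctnnb1 they did not. All 11 subsynaptic scaffold genes were tested and 0 passed. With the GC trend removed 1 passed, where 4.28% of tested genes did. It was Scn4a, the sodium channel of muscle, which measured 5.14 and 5.97 RPKM in si-SCR and 3.65 and 2.60 RPKM in si-SMaRT. Its groups did not overlap, and its log2 fold change was -0.82 (limma, adjusted p = 0.319) and -0.70 after the correction (limma, adjusted p = 0.0376). The Scn4a call was lost with either si-SCR library left out, as was every other call of the corrected fit. Nes, nestin, at 266.3 and 352.1 RPKM in si-SCR and 328.3 and 285.6 RPKM in si-SMaRT, and Macf1, a linker of microtubules and actin, at 89.3 and 117.6 RPKM in si-SCR and 100.6 and 112.5 RPKM in si-SMaRT, were the most abundant. Both overlapped between the groups.

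Among the regulators, 6 of 7 neuregulin and ETS genes and 7 of 10 E-box factors and activity-dependent repressors were tested, and 0 of either list passed. Erbb3, a neuregulin receptor, measured 20.9 and 28.7 RPKM in si-SCR and 24.1 and 18.2 RPKM in si-SMaRT. Gabpa, the ETS factor of the N-box, measured 19.6 and 19.7 RPKM in si-SCR and 16.1 and 27.7 RPKM in si-SMaRT. In both genes the groups overlapped. Myog, the E-box factor myogenin that binds promoters of receptor subunits, measured 1015 and 1114 RPKM in si-SCR and 922.8 and 639.8 RPKM in si-SMaRT, and its log2 fold change was -0.47 (limma, adjusted p = 0.696). Myod1, its relative, measured 54.8 and 70.1 RPKM in si-SCR and 95.9 and 57.7 RPKM in si-SMaRT, and its log2 fold change was 0.26 (limma, adjusted p = 0.857). The groups were separate for Myog and overlapped for Myod1. After quantile normalization the value for Myog was -0.13, and without si-SMaRT 1 that for Myod1 was -0.10 while without si-SMaRT 2 it was 0.63, past the threshold (limma, adjusted p = 0.0389). Myf6, Hdac9 and Dach2 had no row.

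The genes outside the member list whose pattern over the 4 libraries was most like the mean pattern of the 4 subunits were Ablim3, Dnajc4, Rassf2, Fam120aos and Polr3gl. Their Euclidean distances on centred log2(RPKM + 0.1) values were 0.0335, 0.0404, 0.0535, 0.0641 and 0.0687, over 4 values in each gene. Ablim3, an actin-binding protein, measured 18.2 and 20.9 RPKM in si-SCR and 14.5 and 11.7 RPKM in si-SMaRT.

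The lnc-SMaRT pull-down, in which transcripts bound by lnc-SMaRT were recovered with probes and sequenced in 1 library, gave 345 peaks in the authors' list, and the LacZ control pull-down gave 336. None of the 9 members held a peak of either list in its gene body on the same strand or on either strand, or in an exon. The share of all genes with a peak was not worked out, so this count shows nothing particular to the members. A peak list shows only places past the caller's threshold, and the depth of the pull-down libraries over these genes was not analysed here.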

How the data were processed

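RNA of 2 si-SCR and 2 si-SMaRT libraries of C2C12 cells was sequenced, from 2 independent populations of cells. Reads from rRNA and tRNA were discarded by the authors after Bowtie 2 alignment. The authors then aligned to GRCm38 with TopHat2, counted reads per gene with htseq-count, removed genes with low CPM and deposited RPKM values, calculated in edgeR with library sizes scaled by TMM. The deposited peak lists, made by the authors with Piranha, give a p-value per peak from 1 library each and were used for overlap only. Tool versions were not given in the sources used here.

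For all 11642 rows, read numbers were derived from the steps between a gene's RPKM values. In 6236 rows the gene model fixed their common factor. In the others, Dok7 among them, the smallest factor that gave a whole length was taken. Read numbers and lengths of those rows could thus be multiples of the ones given. Recovered reads summed to 12935826 and 14276017 in si-SCR and 10953090 and 13926730 in si-SMaRT. In 576 rows the names of overlapping genes were joined, and none of the 9 members was in such a row.

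Differences were tested with limma 3.58.1 in R 4.3.3 (trended prior variance) on log2(RPKM + 0.1) for genes averaging 0.5 RPKM or more, and p-values were adjusted by Benjamini-Hochberg at 0.05. This scale understates the change of low genes. GC content came from GENCODE M21 transcripts, and each library's trend was taken out by loess (span 0.3). Promoter sequences were from RefSeq (GRCm38.p6). Python 3.11.15 was used for the other steps. The alternatives were other pseudocounts and filters, quantile normalization, other prior variances, a replicate block, voom on the recovered reads, removal of the GC trend and each library left out. A crossed block and the GC correction with a library left out were added after the values were seen.

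The members, the gene lists and the alternatives were chosen with earlier results of these data known. Named besides the members were the genes of a list past the threshold, or else the 2 of it with the highest mean RPKM, and the 5 genes most alike to the mean subunit pattern. Outside this rule, Ckm and Scn4a were named after their values were seen, as calls of the GC-corrected fit. The input library was not used here. A list of cell markers is not reported here.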

Additional observations from a re-analysis of the deposited data

How the results depend on the processing

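The number of members past the threshold was 0 in the fit reported and in 9 of the alternatives, 1 with the crossed replicate block and 2 with the GC trend removed. It ranged from 0 to 4 with each library left out and from 0 to 3 with the GC trend removed as well. For the other postsynaptic genes the number was 1 in the fit reported, 0 with no filter on low values, 0 with quantile normalization, 0 with no trend in the prior variance, 3 with the crossed replicate block and 2 with the GC trend removed. It ranged from 0 to 9 with each library left out and from 0 to 8 with the GC trend removed as well. The share of all tested genes that passed changed between these fits too, as given above for those without a si-SMaRT library. The counts alone therefore show nothing particular to the members or to the other postsynaptic genes. The causes were not tested. With each library left out, the log2 fold change of Dok7 ranged from -0.54 to 0.63 and was -0.11 without si-SCR 1. That of Myod1 ranged from -0.10 to 0.63. Both were above 0 in the fit reported. Quantile normalization moved Chrna1 to -0.25 and Chrnb1 to -0.15. Deviations of same-numbered libraries had a correlation of -0.36, and of -0.16 with the GC trend removed, and no label says that a number marks a shared culture or day. The replicate block called 0 members, 1 other postsynaptic gene and 96 genes in all, against 56 without it and 487 with the crossed block. With 2 libraries per group, the limit was the spread between libraries rather than depth, except for Ache.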
